A study of Homo sapiens with 4 samples.

Results

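The genes described here encode 9 enzymes or enzyme subunits of the mitochondrial tricarboxylic acid cycle. They were named one by one as CS, IDH3A, OGDH, SUCLA2, SUCLG1, SDHA, SDHB, FH and MDH2, and all 9 were found by Ensembl identifier among the 28729 genes of the deposited expression table. They were measured by RNA sequencing in TU-177, an established human cell line of laryngeal squamous cell carcinoma (LSCC), in 2 libraries of negative control cells (NC) and 2 libraries of cells with knockdown of SKA3 (SKA3-KD). SKA3 is a subunit of the complex that ties kinetochores to spindle microtubules. The study sequenced knockdown cells to look for how SKA3 acts on LSCC cell proliferation, and then studied glycolysis. Cells of both groups received a lentivirus with an shRNA, against SKA3 or a negative control, and both were selected with puromycin from 48 hours after transduction, so viral integration and drug selection were common to NC and SKA3-KD. Beside the shRNA, the study's methods describe other ways of lowering SKA3, and the labels of these libraries name only the shRNA. The labels do not say whether the libraries of a group came from separate cultures, so the p-values below measure the spread between these libraries, which may be technical.

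The cycle runs in the mitochondrial matrix. Citrate synthase (CS) joins acetyl-CoA to oxaloacetate, and a pair of oxidative decarboxylations follow, by the NAD-linked isocitrate dehydrogenase, whose catalytic subunit is IDH3A, and by the oxoglutarate dehydrogenase complex, whose first component is OGDH. Succinyl-CoA ligase (SUCLG1 with SUCLA2 or SUCLG2) releases succinate, succinate dehydrogenase (SDHA to SDHD, also complex II of the respiratory chain) oxidises it to fumarate, fumarase (FH) hydrates fumarate to malate, and malate dehydrogenase 2 (MDH2) restores oxaloacetate. The NADH and reduced flavin made on the way feed the respiratory chain, and citrate that leaves the mitochondrion supplies acetyl-CoA for lipid synthesis. Tumour cells that ferment glucose to lactate can still run the cycle, in part on glutamine.

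The values are FPKM, read counts divided by the exon length of the gene and by the size of the library, so levels can be set side by side between genes as well as between libraries. Low FPKM values step in units of 1 read, which gave library totals of 9015056 to 11966130 reads and 342 to 8341 reads for each of the 9 genes in each library. SKA3 (ENSG00000165480) itself was at 9.40 and 9.64 FPKM in NC and at 3.77 and 4.12 FPKM in SKA3-KD, which is -1.09 on the log2 scale (adjusted p = 0.00806, limma with Benjamini-Hochberg adjustment), so each library matched its label. Without NC 1 or without NC 2 the log2 fold change of SKA3 was -1.11 or -1.07 and no longer passed (adjusted p = 0.0660 and 0.0600, limma). The cell line was checked against marker genes. Of 8 squamous epithelial markers in the table, 3 had a mean of at least 1 FPKM (SFN, KRT17 and EPCAM), while the keratins KRT5, KRT14 and KRT6A lay at or near 0 in every library. TP63 and CDH1 also stayed below 1 FPKM in every library. The summed squamous markers were at 193 and 208 FPKM in NC and at 167 and 189 FPKM in SKA3-KD. Most of that sum was SFN (144 and 155 FPKM in NC, 133 and 150 in SKA3-KD). KRT17 made up most of the rest (45.6 and 49.1 FPKM in NC, 29.4 and 35.7 in SKA3-KD). The 5 fibroblast markers summed to 15.4 and 15.8 FPKM in NC and to 8.86 and 9.56 FPKM in SKA3-KD, mostly through DCN (8.40 and 8.36 FPKM against 2.48 and 2.35), while PDGFRB lay higher in SKA3-KD (2.88 and 2.46 FPKM against 3.19 and 4.13), and their part in the results below was not tested. Leukocyte markers (3) summed to at most 1.01 FPKM and endothelial markers (2) to at most 0.0968 FPKM. In such bulk samples fewer cells of a type and less RNA per cell cannot be told apart.

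The stretches upstream of 4 of these genes are shown because these 4 passed the threshold when whole reads were tested, 2 of them above NC and 2 below, and a reader may want to compare what the pairs hold. They are the 250 bases before the start given by RefSeq on GRCh38.p14, on the strand of the gene, at chr12:56300331-56300580 (minus strand) for CS, chr7:76047856-76048105 (plus strand) for MDH2, chr15:78149112-78149361 (plus strand) for IDH3A and chr13:48001274-48001523 (minus strand) for SUCLA2. The RefSeq starts of all 4 genes lie inside the spans that GENCODE 29 gives these genes below. The stretches of IDH3A and SUCLA2 lie wholly inside those spans, and those of CS and MDH2 lie inside in part. All are thus upstream of the RefSeq start only. Entries were found for 8 of the 9 genes, all but OGDH. Capitals mark 5 short motifs on either strand, namely the GC box GGGCGG, the ETS core CCGGAA, the CCAAT box CCAAT, the NRF1 half-site TGCGCA and the half-site AAGGTCA of the estrogen-related receptors.
CS: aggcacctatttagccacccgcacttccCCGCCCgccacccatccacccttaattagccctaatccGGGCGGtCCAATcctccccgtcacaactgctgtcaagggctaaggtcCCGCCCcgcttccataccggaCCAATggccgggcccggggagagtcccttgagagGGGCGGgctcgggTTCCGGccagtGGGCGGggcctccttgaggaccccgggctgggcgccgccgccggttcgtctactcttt
MDH2: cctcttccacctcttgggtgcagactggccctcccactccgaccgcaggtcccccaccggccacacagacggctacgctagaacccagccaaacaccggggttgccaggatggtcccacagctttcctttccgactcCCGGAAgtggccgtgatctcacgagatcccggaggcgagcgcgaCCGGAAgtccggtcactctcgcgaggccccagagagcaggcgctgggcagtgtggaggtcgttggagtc
IDH3A: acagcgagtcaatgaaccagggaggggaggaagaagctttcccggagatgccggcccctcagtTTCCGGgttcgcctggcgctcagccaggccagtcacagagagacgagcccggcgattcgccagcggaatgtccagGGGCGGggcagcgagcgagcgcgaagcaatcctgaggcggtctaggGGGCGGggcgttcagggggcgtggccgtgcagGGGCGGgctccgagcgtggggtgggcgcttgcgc
SUCLA2: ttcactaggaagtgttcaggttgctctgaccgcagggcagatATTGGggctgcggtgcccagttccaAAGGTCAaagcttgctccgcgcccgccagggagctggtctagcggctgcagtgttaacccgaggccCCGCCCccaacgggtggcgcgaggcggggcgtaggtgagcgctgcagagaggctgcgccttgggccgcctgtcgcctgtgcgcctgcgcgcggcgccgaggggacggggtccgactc

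The CS stretch held 5 GC boxes, 2 CCAAT boxes and 1 ETS core. The MDH2 stretch held 2 ETS cores and no other of these motifs. IDH3A held 3 GC boxes and 1 ETS core, and SUCLA2 held 1 GC box, 1 CCAAT box and 1 AAGGTCA. The GC box, the ETS core and the CCAAT box thus lay upstream of genes above NC as well as below it, AAGGTCA upstream of SUCLA2 alone among these 4, and TGCGCA upstream of none of them. Over the 8 genes, the GC box was found in 5, against 42.6% of all 35116 RefSeq promoters, and the ETS core in 5 (CS, IDH3A, MDH2, SDHA and SDHB), against 14.5%. CCAAT was found in 3, against 32.0%, TGCGCA in 2 (SDHA and SDHB), against 6.89%, and AAGGTCA in 2 (SDHB and SUCLA2), against 3.44%. The share of G and C was 67.6% for CS, 66.0% for MDH2, 70.0% for IDH3A and 69.2% for SUCLA2, against a median of 58.0% over all promoters. A match of letters is a description and not a bound site.

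The 9 genes did not all differ in one direction between NC and SKA3-KD. CS, OGDH and MDH2 were 20.5%, 17.6% and 18.2% higher in mean FPKM in SKA3-KD, while IDH3A, SUCLA2 and FH differed by -18.2%, -16.1% and -10.5%. SDHA, SDHB and SUCLG1 differed by 6.76%, 3.55% and -5.83%. In limma on log2(FPKM + 1) with Benjamini-Hochberg adjustment, 0 of the 9 genes passed an adjusted p of 0.05, where 12.3% of the 12645 genes tested did, 6.11% lower and 6.16% higher in SKA3-KD. At an unadjusted p under 0.05 the count was 5 of 9 (CS, OGDH and MDH2 above NC, IDH3A and FH below), against 31.3% of all genes tested. When limma voom was run on the whole reads behind the FPKM values, 5 of 9 passed an adjusted p of 0.05, against 26.0% of all genes tested. These were CS, OGDH and MDH2 above NC, against 13.8% of all genes in that direction, and IDH3A and SUCLA2 below, against 12.2%. The median log2 fold change of the 9 genes was 0.05, beside 0.01 over all genes tested, and their median size without sign was 0.23, beside 0.17. The groups did not overlap in 7 of the 9 genes, 3 lower and 4 higher in SKA3-KD, where the same held for 61.6% of all genes tested, 29.2% lower and 32.3% higher.

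**Figure D1:**
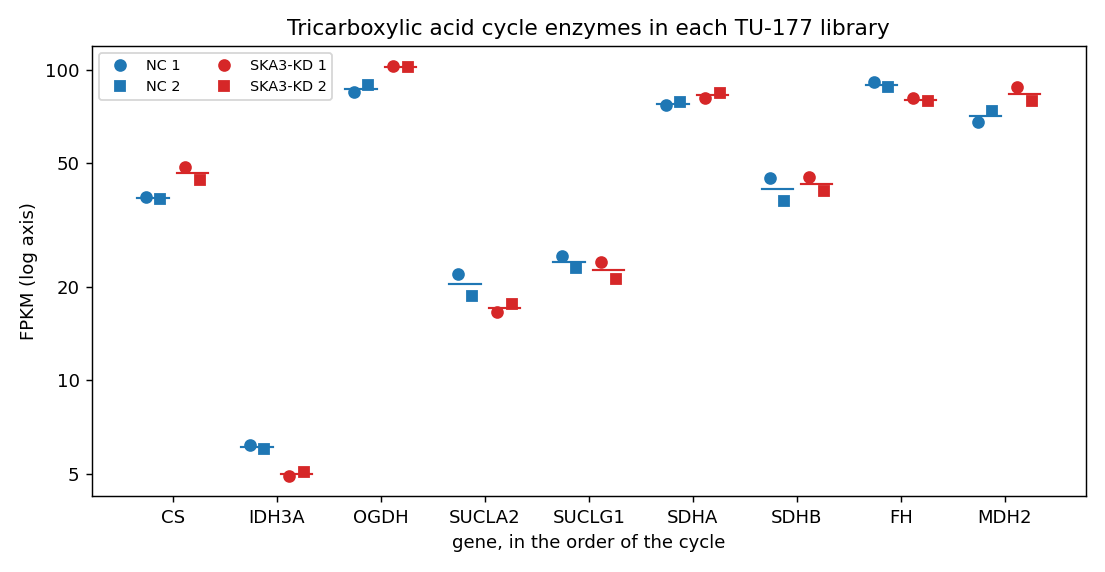
FPKM (log axis) of the 9 cycle enzymes in the order of the cycle, in NC 1 and NC 2 (blue) and SKA3-KD 1 and SKA3-KD 2 (red), with a bar at each mean of 2 libraries. Both SKA3-KD points lie above both NC points for CS, OGDH, SDHA and MDH2 and below them for IDH3A, SUCLA2 and FH, while the points of SUCLG1 and SDHB overlap.

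The levels themselves spread widely within one pathway. In NC the order of the mean FPKM was FH at 89.5 ± 2.03 (SD, n = 2), OGDH at 86.9 ± 2.99, SDHA at 77.6 ± 1.16, MDH2 at 70.7 ± 4.33, SDHB at 41.3 ± 4.94, CS at 38.6 ± 0.470, SUCLG1 at 24.0 ± 1.55, SUCLA2 at 20.3 ± 2.35 and IDH3A at 6.10 ± 0.129. Neighbours whose libraries overlapped in that order were FH with OGDH and SDHB with CS. In SKA3-KD the order of the mean FPKM was OGDH at 102.1 ± 0.415 (SD, n = 2), MDH2 at 83.6 ± 5.76, SDHA at 82.8 ± 2.17, FH at 80.1 ± 1.42, CS at 46.5 ± 3.11, SDHB at 42.8 ± 3.12, SUCLG1 at 22.6 ± 2.11, SUCLA2 at 17.0 ± 0.692 and IDH3A at 4.99 ± 0.103. Here the libraries of MDH2 overlapped with those of SDHA and of FH, and those of CS with those of SDHB. FH thus led in NC and stood below OGDH, MDH2 and SDHA in SKA3-KD, although FH, MDH2 and SDHA lay within a few FPKM of each other there. The place of a gene in this order depends on the exon length used for its FPKM, which was 6832 bases for IDH3A and, as fitted from the read steps, 3786 bases for SUCLA2.

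CS (ENSG00000062485, chromosome 12, minus strand, 56271699 to 56300392 in GENCODE 29 on GRCh38) encodes the enzyme that opens the cycle. Its FPKM was 38.9 and 38.2 in NC and 48.7 and 44.3 in SKA3-KD. The NC libraries were close to each other, the SKA3-KD libraries were farther apart, and the groups did not overlap. On the log2(FPKM + 1) scale the difference was 0.26 (standard error 0.07, 95% interval 0.09 to 0.44), with an adjusted p of 0.0706 in limma. On whole reads it was 0.27 with an adjusted p of 0.00718 (limma voom).

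IDH3A (ENSG00000166411, chromosome 15, plus strand, 78131498 to 78171949) had the lowest level of the 9. Its FPKM was 6.19 and 6.01 in NC and 4.92 and 5.06 in SKA3-KD, on 506, 370, 342 and 408 reads in that order. Both groups were tight and lay apart. The log2 difference was -0.24 (standard error 0.07, 95% interval -0.43 to -0.06), with an adjusted p of 0.0883 in limma, and -0.29 with an adjusted p of 0.0332 in limma voom. Counting error of the reads alone gives a standard error of 0.0718 for a log2 difference of this gene, the largest of the 9, where SDHA with the most reads has 0.017. The other subunits of the same enzyme had log2 differences of 0.05 for IDH3B (adjusted p = 0.686) and 0.12 for IDH3G (adjusted p = 0.395, limma for both). IDH3A overlaps CIB2 and ACSBG1 on the opposite strand, and no source says whether the counting used strand, so reads in the shared stretch cannot be assigned with certainty. CIB2 was at 1.34 to 2.06 FPKM and ACSBG1 at most at 0.132 FPKM.

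OGDH (ENSG00000105953, chromosome 7, plus strand, 44606572 to 44709066) encodes the decarboxylating first component of the oxoglutarate dehydrogenase complex. Its FPKM was 84.7 and 89.0 in NC and 102.4 and 101.8 in SKA3-KD, with the SKA3-KD libraries nearly equal and both above NC. The log2 difference was 0.23 (standard error 0.06, 95% interval 0.09 to 0.37), with an adjusted p of 0.0574 in limma, the smallest of the 9 genes, and 0.23 with an adjusted p of 0.00971 in limma voom. DLST, the second component of the same complex, which carries the lipoyl group, lay on the other side of 0. DLST (ENSG00000119689, chromosome 14, plus strand, 74881891 to 74903745) was at 36.3 and 35.5 FPKM in NC and at 27.5 and 26.8 FPKM in SKA3-KD. It fell by 0.39 on the log2 scale (standard error 0.06, 95% interval -0.53 to -0.24, adjusted p = 0.0221, limma), and by 0.40 in limma voom (adjusted p = 0.000241). With 1 library left out, DLST stayed between -0.41 and -0.37 on the log2 scale but no longer passed in any of the 4 cases (adjusted p = 0.0755 to 0.116, limma), nor did it pass without the filter on low FPKM (0.0560) or without the trend (0.0543). The third component, DLD, which is shared with the pyruvate dehydrogenase complex, was at 31.9 and 29.2 FPKM in NC and at 31.6 and 29.8 FPKM in SKA3-KD, and its log2 difference of 0.01 turned to -0.00 under median-of-ratios scaling and to -0.01 under quantile normalization.

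Succinyl-CoA ligase pairs one alpha subunit, SUCLG1, with a beta subunit that sets the nucleotide, SUCLA2 for ADP or SUCLG2 for GDP. SUCLA2 (ENSG00000136143, chromosome 13, minus strand, 47745736 to 48037968) was at 22.0 and 18.7 FPKM in NC and at 16.6 and 17.5 FPKM in SKA3-KD. The groups did not overlap, but NC 2 lay nearer to the SKA3-KD libraries than to NC 1. The log2 difference was -0.24 (standard error 0.09, 95% interval -0.48 to 0.00, adjusted p = 0.165, limma). In limma voom it was -0.26 with an adjusted p of 0.0428. The size rested on the NC libraries, with -0.12 without NC 1 and -0.35 without NC 2 in limma. SUCLA2 overlaps SUCLA2-AS1, at 1.005 to 1.82 FPKM, on the opposite strand, and reads in the shared stretch cannot be told apart. SUCLG1 (ENSG00000163541, chromosome 2, minus strand, 84423523 to 84460045) was at 25.1 and 22.9 FPKM in NC and at 24.1 and 21.1 FPKM in SKA3-KD, with overlapping groups. Its log2 difference of -0.08 (95% interval -0.31 to 0.14, adjusted p = 0.567, limma) was smaller than the difference of -0.18 between the SKA3-KD libraries. SUCLG2 was at 22.9 and 18.6 FPKM in NC and at 22.4 and 22.6 FPKM in SKA3-KD (log2 difference 0.12, adjusted p = 0.495, limma).

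No subunit of succinate dehydrogenase passed the threshold, in limma or in limma voom. SDHA (ENSG00000073578, chromosome 5, plus strand, 218241 to 256700), the flavoprotein subunit that binds succinate, was at 76.8 and 78.4 FPKM in NC and at 81.3 and 84.4 FPKM in SKA3-KD. Its groups lay apart by a narrow margin, with a log2 difference of 0.09 (standard error 0.05, 95% interval -0.05 to 0.23, adjusted p = 0.307, limma). SDHA shares sequence with the pseudogenes SDHAP1, at 2.57 to 3.09 FPKM, and SDHAP3, at 13.1 to 15.7 FPKM, and the assignment of reads between them is uncertain. SDHB (ENSG00000117118, chromosome 1, minus strand, 17018722 to 17054170), the iron-sulfur subunit, was at 44.8 and 37.8 FPKM in NC and at 45.0 and 40.6 FPKM in SKA3-KD. Libraries of 1 group differed here by more than the groups did, by -0.24 on the log2 scale between NC 2 and NC 1, against 0.05 between SKA3-KD and NC (95% interval -0.21 to 0.32, adjusted p = 0.768, limma). The membrane anchors were at 71.0 and 68.6 FPKM in NC and 64.9 and 61.4 FPKM in SKA3-KD for SDHC (log2 difference -0.14, adjusted p = 0.178, limma). SDHD was at 32.1 and 29.5 FPKM in NC and at 32.9 and 30.3 FPKM in SKA3-KD (log2 difference 0.04, adjusted p = 0.786, limma). The intervals still allow log2 differences of up to 0.32 in SDHB.

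FH and MDH2 catalyse consecutive steps and lay on opposite sides of 0. FH (ENSG00000091483, chromosome 1, minus strand, 241497603 to 241519761) was at 90.9 and 88.0 FPKM in NC and at 81.1 and 79.1 FPKM in SKA3-KD, tight in both groups and without overlap. Its log2 difference was -0.16 (standard error 0.05, 95% interval -0.30 to -0.02), with an adjusted p of 0.124 in limma and 0.0999 in limma voom. MDH2 (ENSG00000146701, chromosome 7, plus strand, 76048051 to 76067508) was at 67.6 and 73.8 FPKM in NC and at 87.6 and 79.5 FPKM in SKA3-KD. The groups did not overlap, although the libraries within each spread by more than those of FH. The log2 difference was 0.24 (standard error 0.08, 95% interval 0.04 to 0.44), with an adjusted p of 0.112 in limma and 0.0167 in limma voom.

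**Figure D2:**
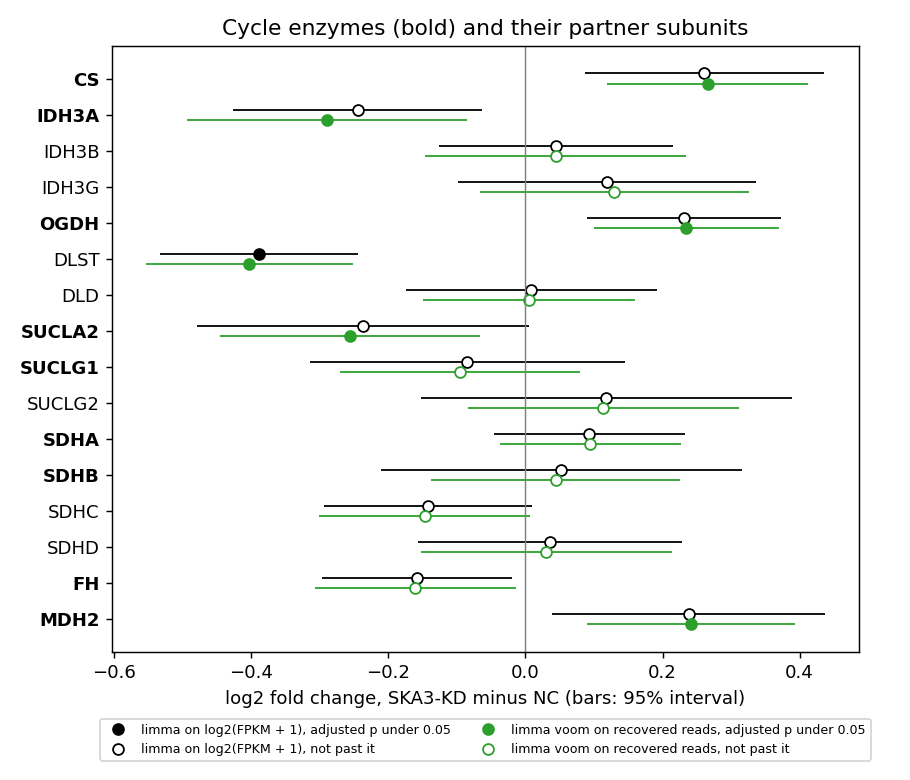
Log2 fold change of SKA3-KD against NC with its 95% interval for the 9 cycle enzymes (bold) and the partner subunits of their complexes, by limma on log2(FPKM + 1) (black) and limma voom on whole reads (green), with filled points past an adjusted p of 0.05. Only DLST is filled in black, at -0.39, while CS, IDH3A, OGDH, DLST, SUCLA2 and MDH2 are filled in green.

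Subunits of one complex were next set against each other inside each library, where a scaling of the whole library cancels. OGDH per DLST was 2.34 and 2.50 in NC and 3.72 and 3.80 in SKA3-KD, a log2 difference of 0.64. IDH3A per IDH3B was 0.272 and 0.285 in NC and 0.221 and 0.220 in SKA3-KD (log2 difference -0.34). IDH3A per IDH3G was 0.330 and 0.316 in NC and 0.257 and 0.229 in SKA3-KD (log2 difference -0.41). In these 3 ratios the groups did not overlap, and both IDH3A ratios rest on the same IDH3A values. For single genes the groups did not overlap in 61.6% of all genes tested. The share over all possible ratios was not computed.

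The beta subunits of succinyl-CoA ligase gave a further such ratio, with SUCLA2 per SUCLG2 at 0.960 and 1.002 in NC and at 0.740 and 0.775 in SKA3-KD (log2 difference -0.37). SUCLA2 per SUCLG1 overlapped, at 0.876 and 0.815 in NC and at 0.687 and 0.831 in SKA3-KD. SDHA per SDHB overlapped too, at 1.71 and 2.07 in NC and at 1.81 and 2.08 in SKA3-KD. An exact two-sided permutation test gave p = 0.333 for each of the 4 ratios without overlap, which is the smallest p that 2 libraries against 2 allow, and p = 0.667 for the other two. Adjusted over the 6 ratios by Benjamini-Hochberg, the lowest p of these exact tests was 0.5, so no ratio could pass a threshold of 0.05 in this exact test, and no other test was run on the ratios.

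**Figure D3:**
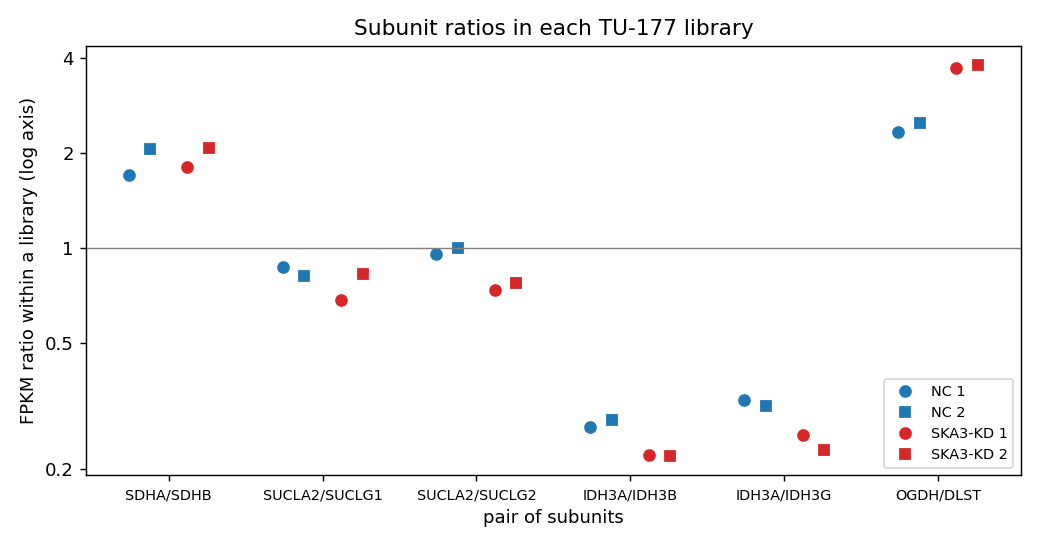
Ratio of FPKM values (log axis) for 6 pairs of subunits of one complex, in NC 1 and NC 2 (blue) and SKA3-KD 1 and SKA3-KD 2 (red). OGDH per DLST lies between 2.34 and 2.50 in NC and between 3.72 and 3.80 in SKA3-KD, and the points of SDHA per SDHB and of SUCLA2 per SUCLG1 overlap.

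The genes that feed, drain and equip the cycle were listed by role, 49 in all in 6 lists, of which 47 reached a mean of 1 FPKM and were tested. Past an adjusted p of 0.05 in limma, 7 were lower in SKA3-KD and 2 were higher, or 19.1% of those tested, beside 12.3% of all genes. In limma voom 8 were lower and 3 higher, or 11 of 47, beside 26.0% of all genes. Without the filter on low FPKM 2 were lower (IDH1 and ACLY) and 0 higher in limma. Without the mean-variance trend 4 were lower (IDH1, ACLY, PDHB and PPARGC1A) and 0 higher. The calls of DLST, ME2, SDHAF1, MPC1 and SLC25A11 were thus lost in both fits. With any 1 of the 4 libraries left out, which leaves 1 group with 1 library, at most 1 of these 9 calls remained (IDH1, without SKA3-KD 2), while the fold changes kept their sign. Both counts leave out the 9 genes above, and the median log2 fold change of the 47 was -0.05.

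Among the 8 remaining enzymes and subunits of the cycle itself, DLST fell and no other passed. Among 5 tested isoenzymes and citrate-using enzymes outside the NAD-linked cycle, 2 fell. IDH1, the cytosolic NADP-linked isocitrate dehydrogenase, was at 25.6 and 24.7 FPKM in NC and at 13.4 and 13.3 FPKM in SKA3-KD, which is -0.87 on the log2 scale (adjusted p = 0.00806, limma). ACLY, which splits exported citrate into acetyl-CoA and oxaloacetate, was at 100.9 and 104.8 FPKM in NC and at 66.6 and 68.0 FPKM in SKA3-KD (log2 fold change -0.60, adjusted p = 0.0103, limma). In both genes the difference between the groups was many times the difference within them. Both act on products of the cycle in the cytosol, and the mitochondrial NADP-linked IDH2 had a log2 difference of 0.05. OGDHL, the paralog of OGDH, was at most at 0.0194 FPKM and was not tested.

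Of 14 genes of pyruvate, malate, glutamine and aspartate entry and exit, 1 fell and 1 rose. PDHB, the beta subunit of the first component of pyruvate dehydrogenase, was at 13.1 and 13.1 FPKM in NC and at 8.48 and 8.39 FPKM in SKA3-KD (log2 fold change -0.58, adjusted p = 0.0129, limma). The alpha subunit PDHA1 had a log2 difference of 0.11 (adjusted p = 0.302, limma). ME2, a mitochondrial malic enzyme, was at 8.44 and 8.35 FPKM in NC and at 11.6 and 11.1 FPKM in SKA3-KD (log2 fold change 0.39, adjusted p = 0.0282, limma). ME3, also mitochondrial, was at 8.91 and 9.25 FPKM in NC and at 9.04 and 8.31 FPKM in SKA3-KD (log2 difference -0.06, adjusted p = 0.623, limma).

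Of 6 tested genes of succinate dehydrogenase assembly and lipoyl attachment, SDHAF1 alone passed. SDHAF1, which helps to place the iron-sulfur clusters of SDHB, was at 15.3 and 16.4 FPKM in NC and at 11.4 and 12.3 FPKM in SKA3-KD (log2 fold change -0.39, adjusted p = 0.0360, limma), beside the overlapping groups of SDHB itself. Among 7 mitochondrial carriers, 1 fell and 1 rose, and the groups did not overlap in any of the 7, where 61.6% of all genes tested had groups apart. MPC1, a subunit of the mitochondrial pyruvate carrier, was at 11.2 and 9.67 FPKM in NC and at 7.41 and 6.67 FPKM in SKA3-KD (log2 fold change -0.51, adjusted p = 0.0373, limma). SLC25A11, the carrier that exchanges oxoglutarate for malate, was at 23.4 and 24.9 FPKM in NC and at 30.0 and 30.1 FPKM in SKA3-KD (log2 fold change 0.30, adjusted p = 0.0422, limma). SLC25A11 no longer passed without the filter (adjusted p = 0.0875), without the trend (0.0846), under median-of-ratios scaling (0.050003) or under quantile normalization (0.0516, limma for all 4). MPC1 and SDHAF1 did not pass without the filter (adjusted p = 0.112 and 0.0917) or without the trend (0.0662 and 0.0674, limma).

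Of 7 regulators of mitochondrial genes, PPARGC1A fell and no other passed. PPARGC1A, a coactivator of mitochondrial biogenesis, was at 2.84 and 2.64 FPKM in NC and at 0.981 and 0.815 FPKM in SKA3-KD. Its log2 fold change was -0.98 (adjusted p = 0.0189, limma) on the log2(FPKM + 1) scale, which understates changes at low FPKM, and -1.62 in limma voom. ESRRA, NRF1 and GABPA, which encode an estrogen-related receptor, NRF1 itself and an ETS-family factor, had log2 differences of -0.04, 0.03 and -0.10 and did not pass (adjusted p = 0.717, 0.793 and 0.407, limma). They are named because of the motifs searched above and not for their values.

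**Figure D4:**
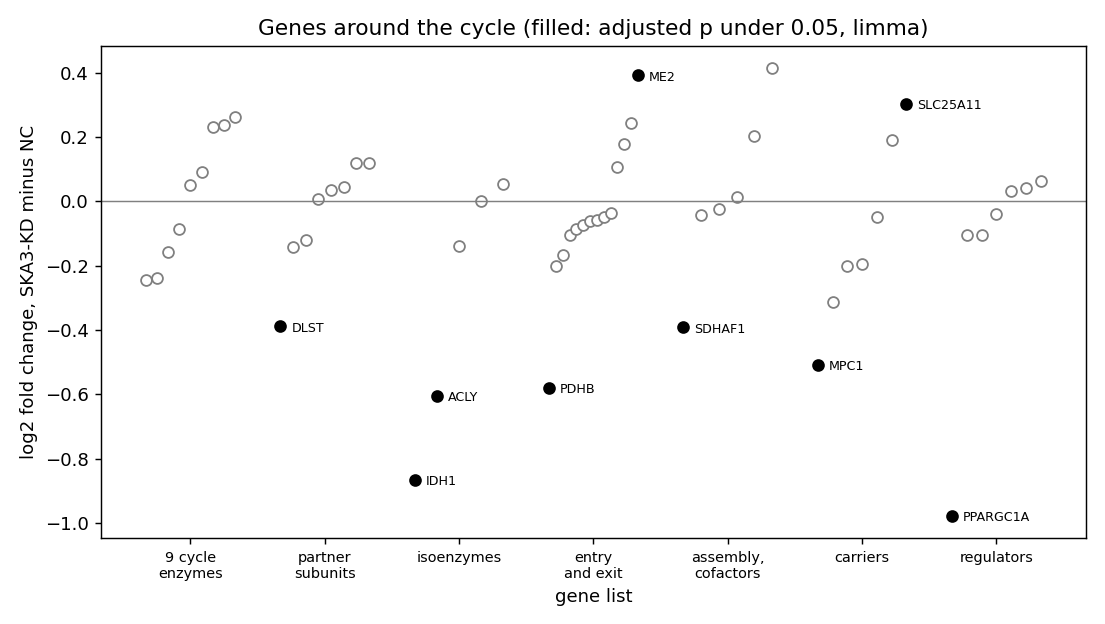
Log2 fold change of SKA3-KD against NC by limma on log2(FPKM + 1) for the 9 cycle enzymes and the 6 lists of genes around the cycle, with 1 point a gene, ordered by value within a list, and filled points past an adjusted p of 0.05. The 9 enzymes lie between -0.24 and 0.26 with no filled point, and the filled points are the 7 lower and 2 higher genes named beside them.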

How the data were processed

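RNA of 4 TU-177 libraries was sequenced, 2 of NC and 2 of SKA3-KD, grouped by their labels. The authors deposited FPKM values per gene, already divided by gene length and library size. Per the labels, hg19, Bowtie2 2.2.8, HISAT2, StringTie 1.3.1 and Cuffdiff 2.1.1 were used, without roles. Positions came from GENCODE 29 on GRCh38 by Ensembl identifier, and upstream sequence from RefSeq on GRCh38.p14, a different build.

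Genes with a mean of at least 1 FPKM (12645 of 28729, among them all 9 cycle enzymes) were tested on log2(FPKM + 1) with limma (version 3.58.1, R 4.3.3), where lmFit was followed by eBayes with the trend option, two-sided, with Benjamini-Hochberg adjustment over all genes and a threshold of 0.05. A fold change on this scale understates changes at low FPKM. Whole reads were recovered from the FPKM steps within 0.01 of a whole read for 100.0% of the genes tested, with the annotated exon length for 61.3% and a fitted length for 38.7%, and limma voom was run on them as an alternative. A wrong fitted length would scale the reads of a gene. Summed over genes, the recovered reads exceeded the library total in every library (12357622 against 11966130 in NC 1), and the cause was not tested. Those totals were the library sizes in limma voom. An exact permutation test of 2 libraries against 2 cannot go below p = 0.333. Replicates differed by more than sampling noise (chi-square over its degrees of freedom 3.70 for NC and 3.68 for SKA3-KD). Counting standard errors cover counting error only.

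The 9 genes and the lists were chosen with earlier results of these data known, so no list was tested. The lists follow textbook roles. Named are the 9 genes, SKA3, the remaining cycle enzymes, listed genes past the threshold, and a few others. Those others were chosen after their values were seen or for the comparison they give (IDH2, OGDHL, PDHA1, ME3, ESRRA, NRF1, GABPA, marker genes, neighbours, and the further genes of the closing section). The results of some genes under this rule are not reported here. In simulated data, limma on log2(FPKM + 1) recovered 88 of 99 genes with a log2 change of 1 and 43 of 99 with 0.5. For limma voom these were 98 of 99 and 87 of 99. Unchanged genes called were 12 and 11. Smaller changes, such as those of the 9 genes, were not simulated. The spread between simulated libraries was set and not taken from these libraries, so these simulated counts need not hold for them. Python 3.11.15 with pandas 2.3.3, numpy 2.4.6, scipy 1.17.1 and matplotlib 3.10.9 was used for the rest.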

Additional observations from a re-analysis of the deposited data

How the results depend on the processing

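Of the 81 fold changes of the 9 genes under 9 alternatives with all 4 libraries, all kept their sign, and 9 were past the threshold where the main fit had none. Those were CS, OGDH, MDH2, IDH3A and SUCLA2 in limma voom (3 higher, 2 lower, with 1547 lower and 1745 higher over all genes against 772 and 779), and CS and OGDH with a mean of at least 5 FPKM (2 higher). They also were CS and OGDH with the replicate number as a block (2 higher, adjusted p = 0.0487 and 0.0421, limma). No label says that the replicate numbers pair the libraries, so the main fit had no block. Same-numbered libraries deviated together with a correlation of 0.0973 across genes, which does not settle whether they were paired. The block called 1967 genes, of which 1399 were among the 1551 of the main fit, and changed no other call of a cycle enzyme. Without the filter 81 genes were lower and 48 higher, all among the 1551, and the wider lists kept 2 lower and 0 higher genes. Without the trend the counts were 381 and 312, with 4 lower and 0 higher in the wider lists, and under median-of-ratios scaling or quantile normalization 1 of the higher genes of those lists remained, ME2. The log2 difference of DLD was -0.0040 and -0.0056 under these scalings. With 1 library left out, the lone library of a group is assumed to vary like the other group. Then 0 to 135 genes were lower and 0 to 46 higher, with none in either fit without an NC library, 0 to 1 lower and 0 higher in the wider lists, and 0 of the 9 genes. The median of the 9 lay between -0.067 (without NC 2) and 0.078, and was -0.020 without SKA3-KD 1. SKA3 lay between -1.14 and -1.04, and lost its call without NC 1 (-1.11) and without NC 2 (-1.07). Differences that crossed 0 were those of SDHB (-0.067 to 0.17), SUCLG1 (-0.18 to 0.0068), IDH3B (-0.0063 to 0.097), DLD (-0.053 to 0.071), SUCLG2 (-0.024 to 0.26) and SDHD (-0.024 to 0.094). The cause of these shifts was not tested, beyond the smaller number of libraries in each fit. Quantile normalization moved the OGDH per DLST difference from 0.64 to 0.67.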

Other observations

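The malate-aspartate shuttle moves reducing equivalents into the mitochondrion and shares MDH2 with the cycle. Its genes were put together here after their values had been seen, so the group has no test. GOT2, the mitochondrial aspartate aminotransferase, was at 37.7 and 40.1 FPKM in NC and at 45.6 and 46.8 FPKM in SKA3-KD, without overlap (log2 difference 0.24, adjusted p = 0.0655 in limma and 0.0131 in limma voom). SLC25A12, an aspartate-glutamate carrier, was at 4.95 and 5.02 FPKM in NC and at 4.22 and 3.44 FPKM in SKA3-KD (log2 difference -0.31, adjusted p = 0.118 in limma and 0.0230 in limma voom). Its more abundant paralog SLC25A13 was at 28.5 and 28.5 FPKM in NC and at 28.2 and 26.9 FPKM in SKA3-KD (log2 difference -0.05, adjusted p = 0.612, limma). The cytosolic enzymes GOT1 and MDH1 had log2 differences of -0.04 and -0.14 (adjusted p = 0.750 and 0.231, limma). MDH2 and SLC25A11, described above, had log2 differences of 0.24 and 0.30.

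The components of the pyruvate dehydrogenase complex, which delivers acetyl-CoA to CS, were not all on one side of 0. PDHB fell, while DLAT, the lipoyl-bearing second component, was at 29.03 and 28.40 FPKM in NC and at 32.8 and 32.5 FPKM in SKA3-KD, without overlap (log2 difference 0.18, adjusted p = 0.103, limma). PDHX, which binds DLD to the complex, was at 16.6 and 14.1 FPKM in NC and at 15.4 and 14.1 FPKM in SKA3-KD (log2 difference -0.05, adjusted p = 0.767, limma). LIPT1, which transfers lipoyl groups to these complexes, was at 0.925 and 1.05 FPKM in NC and at 1.49 and 1.81 FPKM in SKA3-KD (log2 difference 0.41, adjusted p = 0.140, limma).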
